A study of Mus musculus with 6 samples.

Results

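Methylated DNA was measured at 41 genes of meiosis and germ-cell regulation in lungs of mice that carried a DNMT3B transgene and of wild-type mice. The genes come from a list of names, and that list was drawn up with earlier results of these data known. They encode synaptonemal complex proteins (Sycp1, Sycp2, Sycp3, Syce1, Syce2, Syce3, Tex12), meiotic cohesins (Smc1b, Rec8, Stag3) and proteins of the chromosome axis and of recombination (Spo11, Dmc1, Hormad1, Hormad2, Prdm9, Mei1, Mei4, Msh4, Msh5, Mlh3, Meiob, Spata22, Tex15). They also encode germ-cell RNA and granule proteins (Dazl, Boll, Stk31, Rnf17, Tdrkh, Tdrd6, Fkbp6, Tex19.1), transcription and chromatin regulators (Brdt, Sohlh1, Sohlh2, Gtf2a1l, Dmrtb1, Zfp42, Dppa3) and proteins of the germ-cell bridge or surface (Tex14, Tex101, Dpep3). All 41 matched a protein-coding RefSeq gene of the mouse build mm10 (GRCm38.p6), and none lay on chromosome X or Y. The other autosomal protein-coding genes, 20624 in number, were the background.

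Meiosis pairs and recombines homologous chromosomes, and many of its proteins, though not all, are normally made only in germ cells. In somatic tissues many of these genes are silent and carry methylated CpGs at the promoter, including promoters that are rich in CpG. Most other CpG-rich promoters stay free of methylation. In the mouse embryo the de novo methyltransferase DNMT3B is known to place much of the methylation at germ-cell gene promoters, and the repressor E2F6 is known to bind a number of them.

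The study had 3 transgenic and 3 wild-type lungs, each from a separate animal aged 12 to 16 months and each sequenced after capture with a methyl-CpG-binding domain protein (MBD-seq). Transgenic animals carried SPC-DNMTdelta3B/DG, a deletion variant of DNMT3B under the SPC (surfactant protein C) promoter, which is active in alveolar type 2 cells, whereas DNA came from lung tissue of all cell types. The label of transgenic replicate 2 reads SPC-DNMTdeltaB/DG, and sex, founder line and tumour content are not given for any animal. Peaks are stretches of captured, methylated DNA, and a change in the share of cells that are methylated cannot be told apart from a change in methylation within them. Lists held 78952 to 120349 peaks in transgenic and 30637 to 111208 peaks in wild-type lungs on chromosomes 1 to 19, X and Y, with wild-type replicate 3 the shortest. Transgenic replicates 1 and 3 had 1.67% and 1.86% of their peaks on chromosome Y, against 0.599% to 0.911% in the other 4 lists. The number of mapped reads is unknown, so list length stands in for depth, and the part of list length in any difference between groups was not tested.

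Promoters of 6 genes with a peak in all 6 lists, and a pair with a peak in none, are printed from the RefSeq promoter table (GRCm38.p6), with 250 bases before and 50 bases from the start site, 5′ to 3′ along transcription. Capitals mark each CpG, the dinucleotide that is methylated and captured. The first 6 are those with the highest lowest promoter score among the genes that stood out at their ends. This leaves out Fkbp6, Dmrtb1, Spata22 and Tex19.1, which are described further on. Sycp1 encodes the transverse filament of the synaptonemal complex (chr3:102936051-102936350, minus strand, 21 CpGs). Dazl encodes a germ-cell RNA-binding protein (chr17:50293571-50293870, minus strand, 28 CpGs). Syce3 and Tex12 encode proteins of the central element of that complex (chr15:89410214-89410513, minus strand, 15 CpGs, and chr9:50561219-50561518, minus strand, 26 CpGs). Tex101 encodes a germ-cell surface protein (chr7:24672001-24672300, minus strand, 19 CpGs) and Stk31 a Tudor-domain protein of germ cells (chr6:49395289-49395588, plus strand, 29 CpGs).
Sycp1: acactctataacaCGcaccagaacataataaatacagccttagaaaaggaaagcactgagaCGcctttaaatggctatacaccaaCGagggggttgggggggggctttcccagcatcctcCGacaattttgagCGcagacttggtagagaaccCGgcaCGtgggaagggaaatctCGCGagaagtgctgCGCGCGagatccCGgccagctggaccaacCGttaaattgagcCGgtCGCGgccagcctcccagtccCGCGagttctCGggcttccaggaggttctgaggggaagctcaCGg
Dazl: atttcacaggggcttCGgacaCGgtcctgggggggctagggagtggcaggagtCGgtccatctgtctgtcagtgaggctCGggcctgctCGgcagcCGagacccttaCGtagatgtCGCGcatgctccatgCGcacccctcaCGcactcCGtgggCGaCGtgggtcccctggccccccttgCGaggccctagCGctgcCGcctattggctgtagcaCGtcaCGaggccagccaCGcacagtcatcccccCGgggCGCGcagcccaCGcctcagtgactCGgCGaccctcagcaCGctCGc
Syce3: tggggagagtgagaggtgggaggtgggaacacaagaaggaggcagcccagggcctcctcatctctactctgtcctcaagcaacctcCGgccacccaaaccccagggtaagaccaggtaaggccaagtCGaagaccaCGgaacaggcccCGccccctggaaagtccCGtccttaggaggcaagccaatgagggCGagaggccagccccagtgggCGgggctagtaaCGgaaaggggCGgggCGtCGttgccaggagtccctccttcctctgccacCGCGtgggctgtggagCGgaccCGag
Tex12: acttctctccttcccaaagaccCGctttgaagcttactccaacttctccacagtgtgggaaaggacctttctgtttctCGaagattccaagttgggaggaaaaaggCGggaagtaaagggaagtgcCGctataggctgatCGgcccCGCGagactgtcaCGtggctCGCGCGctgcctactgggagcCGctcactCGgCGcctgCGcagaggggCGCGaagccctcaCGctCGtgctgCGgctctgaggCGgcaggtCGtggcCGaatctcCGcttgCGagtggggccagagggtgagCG
Tex101: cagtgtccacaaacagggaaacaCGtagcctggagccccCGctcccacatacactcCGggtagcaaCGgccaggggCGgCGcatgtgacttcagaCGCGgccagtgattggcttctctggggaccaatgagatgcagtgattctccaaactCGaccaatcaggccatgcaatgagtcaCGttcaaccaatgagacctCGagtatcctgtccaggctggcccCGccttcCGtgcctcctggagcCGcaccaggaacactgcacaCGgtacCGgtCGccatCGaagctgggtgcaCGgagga
Stk31: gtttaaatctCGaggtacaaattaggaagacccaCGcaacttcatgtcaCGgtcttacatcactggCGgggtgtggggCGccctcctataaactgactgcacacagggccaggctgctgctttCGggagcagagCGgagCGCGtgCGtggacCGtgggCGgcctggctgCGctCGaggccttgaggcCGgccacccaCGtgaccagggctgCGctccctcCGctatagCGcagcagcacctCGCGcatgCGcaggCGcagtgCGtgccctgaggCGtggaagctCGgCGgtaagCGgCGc

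Mlh3 and Msh5 had CpG-rich promoters with a peak in none of the 6 lists. Mlh3 encodes a mismatch repair protein that also acts at meiotic crossovers (chr12:85270550-85270849, minus strand, 22 CpGs), and Msh5 a MutS homologue that stabilises recombination intermediates (chr17:35046573-35046872, minus strand, 27 CpGs).
Mlh3: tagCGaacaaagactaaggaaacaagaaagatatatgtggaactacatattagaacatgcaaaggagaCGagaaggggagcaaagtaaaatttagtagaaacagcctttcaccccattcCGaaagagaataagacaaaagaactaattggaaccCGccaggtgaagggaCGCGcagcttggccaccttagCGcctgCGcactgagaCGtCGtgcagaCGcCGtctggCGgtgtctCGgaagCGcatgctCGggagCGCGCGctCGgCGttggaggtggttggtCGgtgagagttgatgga
Msh5: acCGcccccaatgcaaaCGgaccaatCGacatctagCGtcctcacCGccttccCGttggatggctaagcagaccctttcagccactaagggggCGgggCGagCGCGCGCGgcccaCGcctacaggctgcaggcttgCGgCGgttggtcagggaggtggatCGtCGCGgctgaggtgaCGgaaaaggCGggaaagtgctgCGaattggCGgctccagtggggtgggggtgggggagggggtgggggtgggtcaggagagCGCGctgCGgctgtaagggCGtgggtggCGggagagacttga

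Promoters of germ-cell genes were captured in every library, and far more often than promoters of other genes. The RefSeq table held a promoter for 35 of the 41 genes and for 16422 other genes, and a gene was counted where a peak overlapped a promoter by at least 1 bp. In transgenic replicates 1, 2 and 3 a peak lay in 68.6%, 62.9% and 60.0% of germ-cell promoters, against 4.44%, 3.59% and 2.62% of the other promoters in the same lists. In wild-type replicates 1, 2 and 3 the shares were 51.4%, 65.7% and 31.4% of germ-cell promoters, against 1.58%, 3.77% and 0.566% of the others. In the shortest list, wild-type replicate 3, the 95% exact binomial interval was 16.9% to 49.3% for germ-cell promoters and 0.457% to 0.693% for the others. In no list did the intervals of the germ-cell and the other promoters overlap. These intervals cover counting error only and take genes as independent. Since the choice of genes was not independent of these data, no test of the difference was made.

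**Figure D1:**
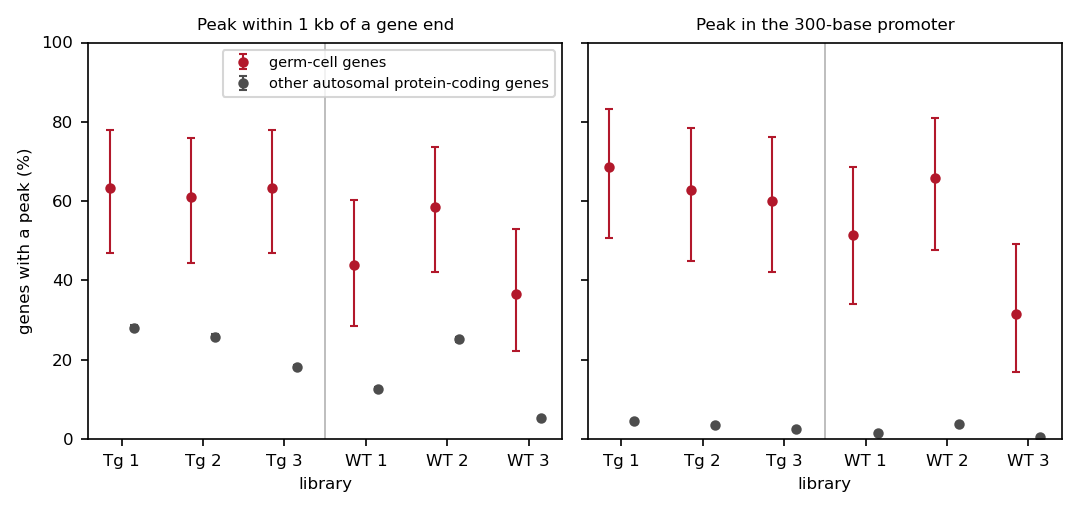
Share of genes with a peak within 1 kb of a gene end (left) or in the 300-base promoter (right), in percent, for germ-cell genes (red) and other autosomal protein-coding genes (grey) in each transgenic (Tg) and wild-type (WT) library. Bars are 95% exact binomial intervals; germ-cell promoters lie at 31.4% to 68.6%, above the other promoters at 0.566% to 4.44% in all 6 libraries.

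At gene ends, taken as 1000 bp on either side of the start or the end of the gene span, the gap was smaller on average and in 5 lists, and in wild-type replicate 3 it was 31.3 points at ends and 30.9 points at promoters. A peak lay at an end of 63.4%, 61.0% and 63.4% of the 41 germ-cell genes in the transgenic lists and of 43.9%, 58.5% and 36.6% in the wild-type lists. For the other genes these shares were 28.1%, 25.8% and 18.1% in the transgenic and 12.6%, 25.2% and 5.31% in the wild-type lists. Germ-cell genes thus stood 35.3 ± 5.23 percentage points above other genes at their ends (mean ± SD over 6 lists) and 53.9 ± 12.3 points above them at promoters.

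Over whole gene spans with 1 kb on each side, a peak lay somewhere in 90.2%, 87.8% and 85.4% of germ-cell genes in transgenic and 75.6%, 90.2% and 70.7% in wild-type lungs. For other genes these shares were 69.5%, 68.2% and 60.4% in transgenic and 53.1%, 67.4% and 32.4% in wild-type lungs. The share of bases covered differed less. Peaks covered 2.77%, 2.28% and 1.89% of the same germ-cell spans in transgenic replicates 1, 2 and 3, and 1.31%, 2.34% and 0.516% in wild-type replicates 1, 2 and 3. The spans of other genes were covered to 3.18%, 2.61% and 1.64% in the transgenic and 1.19%, 2.65% and 0.282% in the wild-type lists. The ratio of germ-cell genes to other genes was 0.870 to 1.16 in the transgenic and 0.882 to 1.83 in the wild-type lists. Of 35 genes with a known strand, 22 had a peak near the start in some list and 6 had one near the far end.

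Synaptonemal complex genes were captured at nearly every member. Of the 7 genes, 6 carried an end peak in all 6 lists, and Syce2, which encodes a central element protein, had none. Sycp1 had peak scores of 1282, 854 and 568 in transgenic replicates 1, 2 and 3 and 284, 590 and 177 in wild-type replicates 1, 2 and 3. Scores are the authors' own, come from the peak caller with a minimum of 50, and are not scaled between lists. Within its own list the Sycp1 peak stood at percentiles 99.6, 99.4 and 99.8 in the transgenic and 99.2, 98.5 and 98.1 in the wild-type libraries. Sycp1 thus ranked near the top of the list in all 6 animals. Sycp2 and Sycp3, which encode lateral element proteins, had scores of 802, 610 and 311 and of 940, 507 and 290 in transgenic lungs, against 196, 412 and 137 and 219, 523 and 104 in the wild-type lists. Tex12 had 884, 536 and 276 in the transgenic lists against 123, 417 and 84.2 in the wild-type lists. Syce1 and Syce3, also of the central element, had 657, 643 and 274 and 712, 314 and 296 in the transgenic lists, against 58.9, 647 and 108 and 96.5, 312 and 90.5 in the wild-type lists. For all 6 genes, wild-type replicate 2 lay within the transgenic range, while wild-type replicates 1 and 3 lay below it.

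The cohesin genes were mostly without capture at the promoter. Rec8, the kleisin subunit, and Stag3 had no promoter peak in any list. Smc1b, the SMC subunit, had promoter peaks of score 172 and 100 in transgenic replicates 1 and 2 and of 206 in wild-type replicate 2, and none in the other 3 lists. Stag3 had 1 to 4 peaks elsewhere in its span in all 6 lists. Rec8 had a peak within 1 kb of its span in transgenic replicates 1 and 3, with scores of 65.8 and 60.8.

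Genes of the axis and of recombination were split. Hormad1 and Hormad2 encode axis proteins with a HORMA domain. The Hormad1 promoter had scores of 792, 546 and 327 in transgenic lungs and 171, 518 and 0 in wild-type lungs, where 0 means that no peak was listed. For Hormad2 the scores were 326, 170 and 78.9 in the transgenic and 0, 184 and 0 in the wild-type lists. Spata22, which encodes a partner of the single-strand DNA-binding protein MEIOB, had a promoter peak in all 6 lists, with scores of 286, 259 and 137 in transgenic and 104, 240 and 61.3 in wild-type lungs. That promoter lies 3181 bp inside the RefSeq span, so it was not seen at the gene ends. The peak of Msh4, a partner of Msh5, lay at the outer start of its span in all 6 lists, with scores of 790, 540 and 433 in transgenic and 221, 362 and 103 in wild-type lungs. It missed the tabulated promoter, whose start site lies 1247 bp inside the span, by 233 to 564 bp.

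The other recombination genes had little at the start. Of Dmc1 (the meiotic recombinase), Prdm9 (a histone methyltransferase that sets recombination hotspots), Mei4 (needed for meiotic double-strand breaks), Msh5 and Mlh3, none had a promoter peak in any list. Mei1, also needed for double-strand breaks, had a single promoter peak, in transgenic replicate 1, which overlapped the promoter by 1 bp. Mlh3 had peaks at its far end with scores of 198, 93.7 and 69.3 in transgenic lungs and 0, 61.5 and 0 in wild-type lungs. Mei4 had 8, 8 and 7 peaks inside its span in transgenic and 7, 8 and 7 in wild-type lungs, all away from the ends. No peak at all lay within 1 kb of Prdm9, Meiob or, among the granule genes, Tdrkh in any of the 6 lists. For Spo11, the nuclease that makes meiotic breaks, and Tex15, no promoter was tabulated. Spo11 had an end peak in transgenic replicate 1 (score 55.8) and in no other list, and Tex15 had end scores of 161, 101 and 68.4 in the transgenic and 0, 159 and 0 in the wild-type lists.

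Among germ-cell RNA and granule genes, Dazl, Stk31, Fkbp6 and Tex19.1 had a promoter peak in all 6 lists. Stk31 scored 1211, 697 and 388 in transgenic and 196, 497 and 57.3 in wild-type lungs at its promoter. Fkbp6, an immunophilin-family gene needed in spermatogenesis, scored 1313, 560 and 406 in transgenic and 186, 558 and 160 in wild-type lungs. Tex19.1, which restrains retrotransposons in mouse germ cells, scored 437, 362 and 194 in transgenic and 122, 306 and 58.2 in wild-type lungs. Boll, a relative of Dazl, scored 633, 282 and 340 in transgenic and 142, 451 and 0 in wild-type lungs at its promoter. Rnf17, a Tudor-domain gene, had end scores of 563, 437 and 245 in the transgenic and 0, 279 and 0 in the wild-type lists. Tdrd6, a chromatoid body gene, had no end peak in any list and 1 or 2 peaks inside its span in each of the 6 lists.

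The regulators of transcription and chromatin were covered in several ways. Dmrtb1, a DM-domain factor of the switch from mitosis to meiosis, had a promoter peak in all 6 lists (scores of 1021, 431 and 254 in transgenic and 148, 183 and 78.7 in wild-type lungs), at a start site 7301 bp inside its RefSeq span. Brdt, the testis bromodomain gene, had promoter scores of 634, 491 and 231 in transgenic and 136, 334 and 0 in wild-type lungs. The helix-loop-helix factor gene Sohlh2 had end scores of 790, 455 and 281 in transgenic and 90.01, 470 and 61.3 in wild-type lungs. Its relative Sohlh1 had 123, 174 and 92.2 in transgenic and 0, 214 and 0 in wild-type lungs. Zfp42, also called Rex1, a zinc-finger gene of pluripotent and germ cells, had no promoter peak but end scores of 850, 578 and 358 in transgenic and 203, 413 and 0 in wild-type lungs. Dppa3, a maternal factor gene, had an end peak in wild-type replicate 2 (score 93.0) and in no other list.

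All 3 bridge and surface genes had an end peak in every library. Tex14, of the bridges between germ cells, scored 518, 208 and 178 in transgenic and 51.5, 363 and 64.4 in wild-type lungs at its ends. That peak also covers the promoter of the neighbouring gene Rad51c, a recombination gene used in all cells. Tex101 scored 564, 300 and 190 in transgenic and 152, 432 and 83.6 in wild-type lungs. Dpep3, a membrane dipeptidase gene of the testis, scored 757, 561 and 453 in transgenic and 152, 495 and 70.3 in wild-type lungs.

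**Figure D2:**
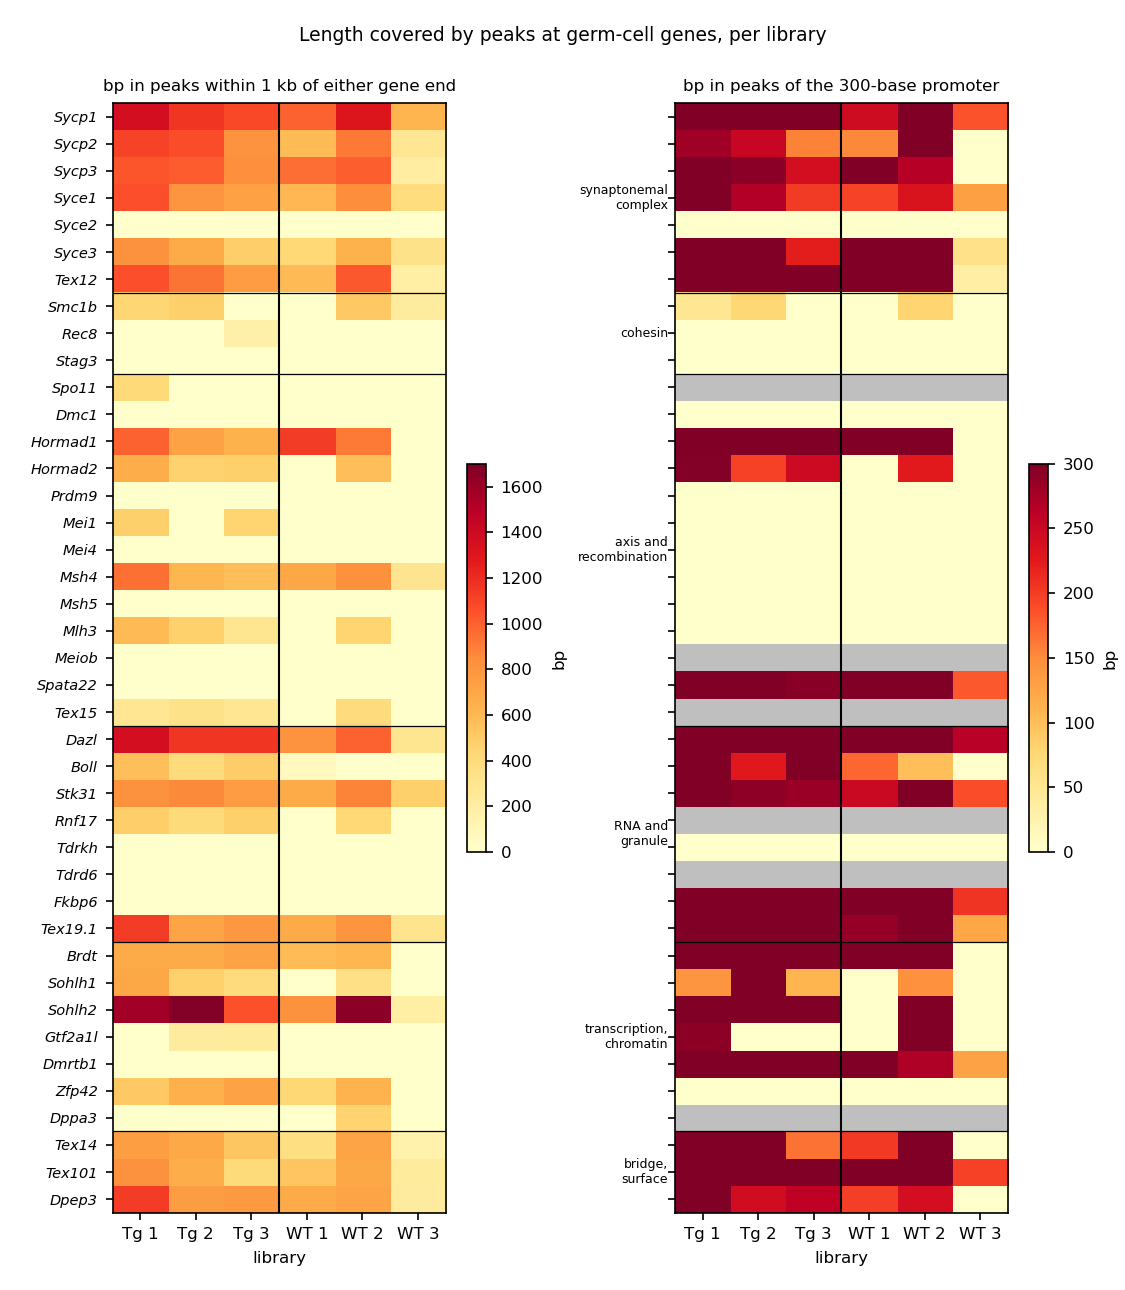
Length in bp covered by peaks within 1 kb of either gene end (left) and in the 300-base promoter (right), for the 41 germ-cell genes grouped by role, in each transgenic (Tg) and wild-type (WT) library; grey marks the 6 genes with no tabulated promoter. Covered promoters recur in the same genes across libraries, with the fewest (11 of 35) in wild-type replicate 3.

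In all, a promoter peak was found in all 6 lists at 11 of the 35 genes (31.4%), in 1 to 5 lists at 13, and in no list at 11. For the other genes, 59 of 16422 (0.359%) had a promoter peak in all 6 lists and 94.2% in none. Of the 7 germ-cell promoters captured in 5 lists, every one lacked a peak only in wild-type replicate 3. At gene ends, 14 of 41 genes (34.1%) had a peak in all 6 lists and 12 in none, against 3.37% and 64.5% of other genes.

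Peaks in germ-cell promoters ranked high in their lists and lay over the start site. Their median percentile by score was 95.8, 95.3 and 93.5 in transgenic lists 1, 2 and 3 and 89.8, 95.6 and 68.6 in wild-type lists 1, 2 and 3. The median score was 685, 473 and 281 for germ-cell promoters against 164, 127 and 105 for other captured promoters in the transgenic lists. In the wild-type lists it was 150, 417 and 83.6 for germ-cell promoters against 80.7, 123 and 75.2 for others. The start site lay inside the peak at 23 of 24, 22 of 22 and 21 of 21 captured germ-cell promoters in transgenic replicates 1, 2 and 3. In wild-type replicates 1, 2 and 3 this held for 17 of 18, 22 of 23 and 7 of 11. Their median peak width was 901, 740 and 763 bp in the transgenic and 592, 715 and 236 bp in the wild-type lists, against 460, 399 and 385 bp and 376, 423 and 197 bp for all peaks.

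**Figure D3:**
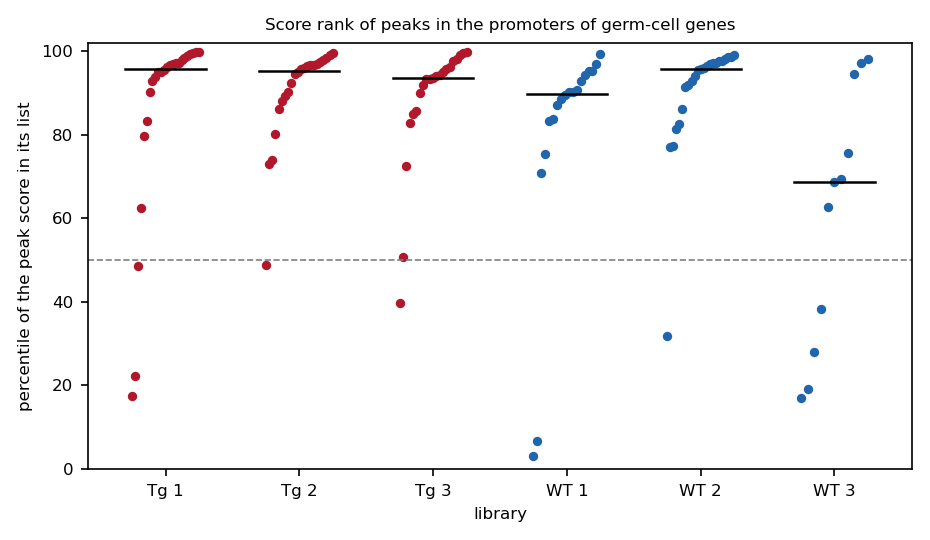
Percentile of each germ-cell promoter peak among all peak scores of its own list, by transgenic (Tg) and wild-type (WT) library; black lines are medians and the dashed line is the 50th percentile. Medians lie at 89.8 to 95.8 in 5 lists and at 68.6 in wild-type replicate 3.

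The study asked where methylation of lung DNA differed with the transgene, and 2 of the 41 genes had a differential region within 1 kb of their span in the authors' deposited table, both higher in the transgenic lungs. Among all autosomal protein-coding genes, 0.513% had a higher and 0.247% a lower region within 1 kb. The list of genes was drawn up with both regions known, so the count is a description. Of the 92205 regions with a peak in at least 3 lists, a number equal to that implied by the first row's FDR and p in the authors' deposited table, 0.33% were called higher and 0.112% lower. Germ-cell genes had 73 such regions within 1 kb, at 36 genes, of which these 2 were called.

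The first region lay over the start of Dazl, from 50293034 to 50294397 on chromosome 17 (mm10, start as listed), or from -777 to 585 bp of the start site printed above. Its log2 read concentration was 6.73 in transgenic and 6.05 in wild-type lungs, which is 0.68 higher on the log2 scale (1.60-fold; FDR 0.0416) per the authors' deposited table, where values per animal are not listed. The authors' annotation placed it over a CpG island that runs from -171 to 936 bp of the start site. Every library had a peak there, with scores of 1154, 792 and 519 in transgenic and 154, 580 and 136 in wild-type lungs. Peaks covered 1363, 1156 and 1157 bp of it in transgenic and 811, 993 and 293 bp in wild-type lungs. These lengths did not overlap between groups, with means of 1225 ± 119 bp in transgenic and 699 ± 363 bp in wild-type lungs (SD, n = 3 each; two-sided exact permutation p = 0.10, the smallest that 3 against 3 allows). The peak of Dazl stood at percentiles 99.3, 99.0 and 99.6 of the transgenic lists and 90.5, 98.4 and 94.4 of the wild-type lists. Without wild-type replicate 3 the difference in covered length was 323 bp, and without wild-type replicate 2 it was 673 bp, against 526 bp with all libraries.

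The second region lay inside Gtf2a1l, a germ-cell relative of the general transcription factor gene Gtf2a1, from 88706927 to 88707487 on chromosome 17 (mm10, start as listed). Its centre was 38547 bp downstream of the start site and the nearest CpG island in the authors' annotation was 176777 bp away. The log2 concentration was 2.89 in transgenic and 0.66 in wild-type lungs in the authors' deposited table, 2.23 apart (FDR 0.0678). The wild-type value is the floor of that table, shared by 3 regions, so the size of the fold rests on how the authors handled low counts, which the sources used here do not give. A peak was listed in all 3 transgenic lungs, with scores of 128, 71.2 and 74.2, and in no wild-type lung. These peaks ranked at percentiles 50.5, 25.8 and 34.6 of their lists, below those of Dazl. The promoter of Gtf2a1l had a peak in transgenic replicate 1 (score 73.5) and wild-type replicate 2 (77.3) and in no other list. Its far end had a peak in transgenic replicates 2 and 3 (scores of 110 and 61.6) and in no wild-type list.

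**Figure D4:**
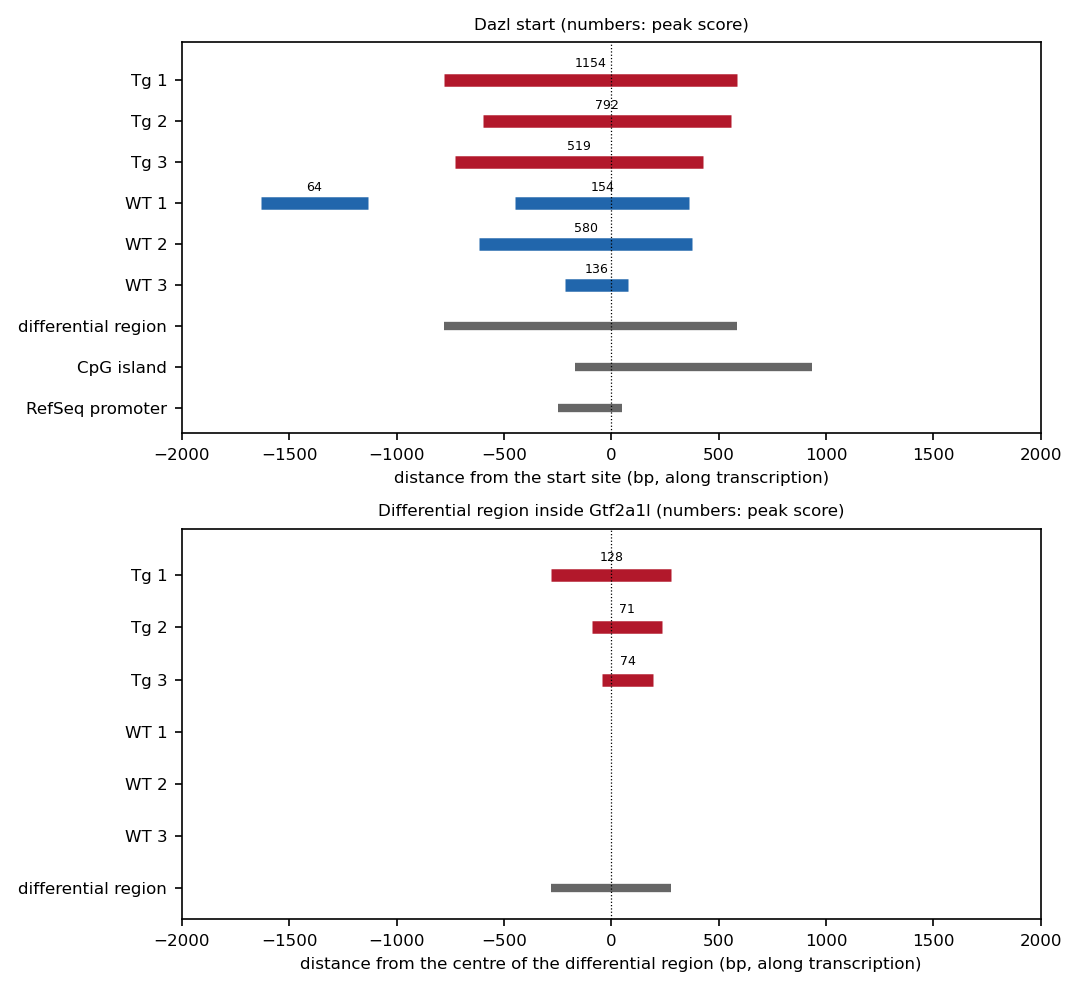
Peaks in each transgenic (Tg, red) and wild-type (WT, blue) library at the start of Dazl (top) and at the differential region inside Gtf2a1l (bottom), with distance in bp along transcription and the peak score above each bar; grey bars are the differential region and, for Dazl, the CpG island and the 300-base promoter. All 6 libraries have a peak over the start of Dazl, and at Gtf2a1l the 3 transgenic libraries alone have one.

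Covered length at the gene ends was greater in all 3 transgenic lists than in all 3 wild-type lists for 5 of the 41 genes, and lower for none. Over all autosomal protein-coding genes 2.54% had greater and 0.00484% had lower lengths without overlap, and of the genes with an end peak in any list 7.14% had greater lengths. Of germ-cell genes with an end peak, 29 in number, the 5 were Dazl, Boll, Sohlh1, Dpep3 and Brdt. Among genes with an end peak in all 6 lists, 2 of 14 germ-cell genes had greater lengths without overlap, against 10.9% of all genes. Boll had 570, 398 and 486 bp in transgenic and 63, 0 and 0 bp in wild-type lungs, although at its promoter wild-type replicate 2 had a peak. Sohlh1 had 691, 466 and 395 bp in transgenic and 0, 339 and 0 bp in wild-type lungs. Dpep3 had 1130, 754 and 771 bp in transgenic against 683, 712 and 228 bp in wild-type lungs, and Brdt had 674, 676 and 725 bp against 590, 612 and 0 bp. For each, the exact permutation test of covered length (two-sided, 3 libraries per group) gave p = 0.10, so none could pass 0.05. With each list trimmed to its 30637 top-scoring peaks, Dazl, Brdt and Dpep3 remained and Boll and Sohlh1 overlapped, against 0.832% of all genes. At promoters 2 of 35 genes, Boll and Dpep3, had greater covered length without overlap and none lower, against 0.395% and 0% of all genes with a promoter. Promoters without a peak in any list cannot differ, and these were 94.2% of other promoters but 31.4% of germ-cell promoters. The share among promoters with a peak was not computed, so this count cannot be read as a difference particular to germ-cell genes. Without wild-type replicate 2 the count at gene ends was 19 genes, against 11.0% of all genes, and without transgenic replicate 3 it was 9, against 8.64% of all genes.

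No germ-cell gene had an end peak in all 3 lists of a group and in none of the other, while 0.653% of all genes had this pattern for the transgenic and 0% for the wild-type group. The share of germ-cell genes with an end peak was 62.6 ± 1.41% in transgenic and 46.3 ± 11.2% in wild-type lungs (SD, n = 3 each), a difference of 16.3 percentage points. For the other genes it was 24.0 ± 5.24% in transgenic and 14.4 ± 10.0% in wild-type lungs, a difference of 9.62 points. The excess of germ-cell over other genes at gene ends was 6.64 points higher in transgenic lungs. Over whole spans the direction was the opposite, with an excess of 21.8 ± 2.84 points in transgenic and 27.9 ± 9.03 points in wild-type lungs (SD, n = 3 each), a difference of -6.13 points. At gene ends the difference was 3.28 points without transgenic replicate 3 and 0.676 points with 2000 bp on each side of an end. With 30637 peaks from each list, the shares of germ-cell genes overlapped between groups, at 48.8%, 48.8% and 46.3% in transgenic and 39.0%, 51.2% and 36.6% in wild-type lungs.

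Captured and uncaptured germ-cell promoters overlapped in CpG content. Where a gene had more than 1 tabulated promoter, the one with the higher CpG ratio was taken here, whatever its peaks. The median number of CpGs in the 300 bases was 25 for the 11 genes with a promoter peak in all 6 lists, 17 for the 13 with a peak in 1 to 5 lists, and 18 for the 11 with none. A promoter was called CpG-rich at an observed over expected CpG ratio of 0.6 or more. Of CpG-rich germ-cell promoters (23), 69.6%, 65.2% and 60.9% had a peak in transgenic and 60.9%, 69.6% and 39.1% in wild-type replicates 1, 2 and 3. Of the other CpG-rich promoters (8590), 2.27%, 1.66% and 1.502% had one in transgenic and 0.803%, 1.68% and 0.466% in wild-type lungs. CpG-poor germ-cell promoters (12) had a peak in 66.7%, 58.3% and 58.3% of genes in transgenic and 33.3%, 58.3% and 16.7% in wild-type lungs, against 0.6001% to 5.59% of other CpG-poor promoters over the 6 lists. Stag3 and Mlh3, with CpG ratios of 1.06 and 1.14, were without a peak, whereas Syce3, at 0.48, had a peak in all 6 lists.

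**Figure D5:**
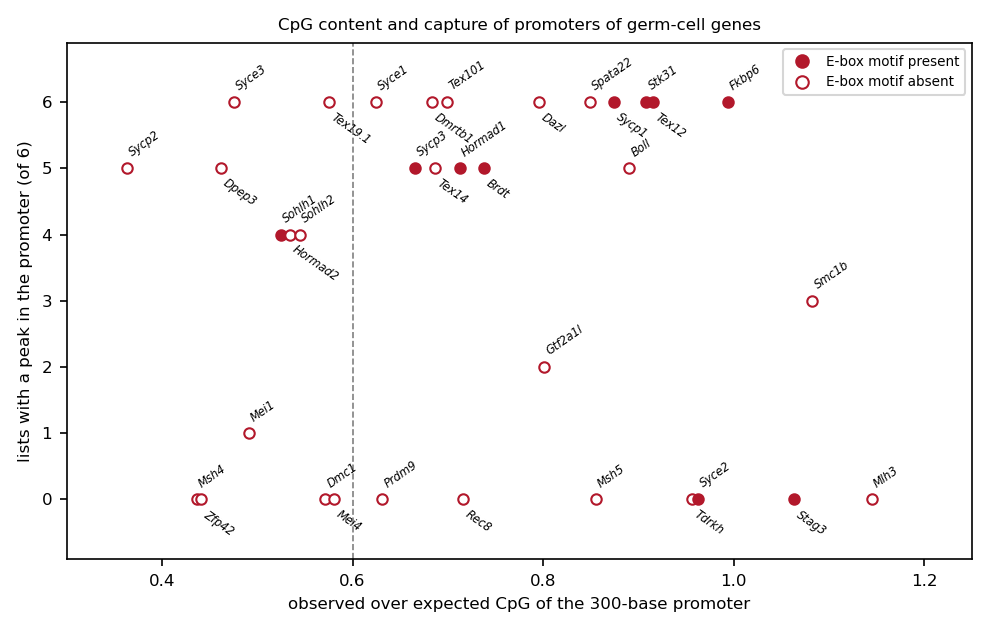
Number of lists (of 6) with a peak in the 300-base promoter against the observed over expected CpG ratio of that promoter, for the 35 germ-cell genes with a tabulated promoter (the one with the higher ratio where there is more than 1); filled points hold CACGTG and the dashed line is the ratio of 0.6. Genes with a peak in all 6 lists and genes with none lie on both sides of the line.

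Letter motifs were searched on both strands of the same promoters. The E-box letters CACGTG were found in 10 of 35 germ-cell promoters (28.6%) and in 8.07% of the promoters of other genes. The letters TCCCGC, the core of E2F motifs, were found in 15 of 35 (42.9%) and in 27.6% of the others. Both strings hold a CpG, and 65.7% of germ-cell promoters were CpG-rich against 52.3% of the others. The part of CpG content in these shares was not tested. Over all 32851 tabulated promoters, 7.15% held CACGTG and 20.0% held TCCCGC. Among germ-cell promoters with a peak in all 6 lists 4 of 11 held CACGTG and 4 of 11 TCCCGC, and among those with none 2 of 11 and 6 of 11. In the sequences printed above, CACGTG begins at base 157 of Sycp1, 158 of Tex12 and 196 of Stk31. TCCCGC or its reverse complement begins at base 253 of Sycp1, 106 of Tex12, and 186 and 286 of Msh5. A match is a string of letters and not a measured binding site.

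Other germ-line genes, listed by role, also had captured promoters. The 14 promoters of somatic relatives had none, as had most promoters of other genes. Of 15 piRNA and germ granule genes with a promoter, 73.3%, 66.7% and 73.3% had a promoter peak in transgenic and 66.7%, 73.3% and 20.0% in wild-type replicates 1, 2 and 3. Among them were Mael (end scores of 807, 356 and 328 in transgenic and 164, 264 and 109 in wild-type lungs), Mov10l1, Ddx4 and Henmt1, each with an end peak in all 6 lists. Of 18 other meiosis genes with a promoter, 38.9%, 38.9% and 33.3% had a promoter peak in transgenic and 33.3%, 44.4% and 11.1% in wild-type lungs, and Rnf212, Terb2 and Hsf2bp had an end peak in all 6 lists. Of 10 other germ-cell regulators, 30.0%, 30.0% and 20.0% had a promoter peak in transgenic and 10.0%, 30.0% and 0% in wild-type lungs. Among all other autosomal protein-coding genes the share with a promoter peak was 0.566% to 4.44% over the 6 lists. Somatic paralogues and partners of the same protein families had a promoter peak at 0 of 14 promoters in each of the 6 lists. This allows a share of up to about 21.4% by an approximate rule (3 divided by the number of promoters), not by the exact binomial interval. The 14 promoters are too few to set somatic relatives apart from other genes. At gene ends 9, 9 and 5 of 20 such genes (45%, 45% and 25%) had a peak in transgenic lungs. In wild-type lungs 1, 7 and 1 did (5%, 35% and 5%). For the other autosomal protein-coding genes these shares were 28.1%, 25.8% and 18.1% in transgenic and 12.6%, 25.2% and 5.31% in wild-type lungs. Promoters of markers of alveolar type 2, endothelial, immune and mesenchymal cells (5, 2, 4 and 3 promoters) also had none, too few to limit a share. At gene ends 3, 1 and 1 of 8 alveolar type 2 markers had a peak in transgenic and 1, 1 and 1 in wild-type lungs. Lamp3 among them had one in all 6 lists. Of 4 endothelial markers 1, 2 and 1 had an end peak in transgenic and 0, 1 and 1 in wild-type lungs. Of 5 immune markers 1 had one, in transgenic replicate 3 alone, and mesenchymal markers had none. The marker lists are too short to be set apart from the shares of other genes at gene ends given above. None of these lists had a member with a differential region within 1 kb in the authors' deposited table. Among all autosomal protein-coding genes 0.513% had a higher and 0.247% a lower region. At such shares lists this short cannot be set apart from other genes by a count of 0. The lists overlap in theme with the germ-cell genes described here, were chosen in the same way, and were not tested against each other.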

How the data were processed

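DNA from 6 mouse lungs was enriched with the MethylCap kit and sequenced, per the labels' protocols; the labels call the 3 animals per genotype biological replicates. Bowtie, DiffBind, edgeR and build mm10 are named per the submitters' processing notes; versions and peak caller settings are unstated there. Peak names are those MACS writes, with 1 list per library. Each peak's score is the authors' deposited value, 50 or more. For 407 differential regions the authors' deposited table lists log2 concentrations, a log2 fold (transgenic minus wild type), a p-value and an FDR (largest 0.0996) from their own fit. The distance of each region to genes and CpG islands is the authors' deposited annotation, in bp.

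Overlaps of at least 1 bp were taken with RefSeq GRCm38.p6 gene spans, 1000 bp around their ends and 300-base promoters. These overlaps and the exact permutation tests were computed in Python 3.11.15 with pandas 2.3.3 and numpy 2.4.6. Clopper-Pearson intervals were computed in scipy 1.17.1. The overlap step was tested on simulated peaks, and the exact tests were checked on small sets of numbers with a known p. The 41 genes, the other gene lists and their tests were chosen with earlier results of these data known. Values per library follow a rule: genes with a differential region, the 12 with the highest lowest end score over 6 lists, and genes without overlap between groups; values of the remaining genes are given to account for every gene. Of other meiosis genes 25 of 26 names matched RefSeq, and of other germ-cell regulators 19 of 20. Alternatives were equal list lengths, a score minimum, other windows, promoters alone, a minimum of 100 bp, stricter calls of differential regions, and leaving out each library.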

Additional observations from a re-analysis of the deposited data

How the results depend on the processing

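Results on groups of germ-cell genes were labelled the same in 114 of 130 recomputations and moved in 16, with no reversal. Counts of genes could only be labelled the same or moved, so the lack of a reversal says nothing about them. Single genes kept their direction in 141 of 144 (1 of these is a value of 0). For differences between groups the label rests on sign alone, since no exact p here could pass 0.05. Their size could change under it: the difference in end share was 16.3 points, and 5.69 points with equal list lengths. The difference in excess at gene ends was 6.64 points, and 0.676 points with 2000 bp on each side. Counts of 0 in both settings are also labelled the same, so 114 is no measure of stable size. The mean excess over other genes at gene ends, 35.3 points, was 33.3 to 36.1 points with a library left out. At promoters alone it was 53.9 points, and 50.3 points with equal list lengths as well (chosen after seeing the data). Genes with greater covered length in transgenic lungs numbered 3 with equal list lengths (0.832% of all genes), 3 above the pooled median score (1.33%), 2 at promoters (0.395%) and 1 at promoters with equal list lengths (0.164%). These shares are over all genes, including the many without a peak in any list. With a library left out they numbered 5 to 19, against 2.55% to 11.0% of all genes. Genes with an end peak in all 6 lists numbered 5 above the pooled median score (0.571% of all genes). Genes with end peaks in 3 transgenic and 0 wild-type lists numbered 1 at a minimum of 100 bp (Boll; 0.619% of all genes) and 0 to 5 with a library left out, with 5 (5.47% of all genes) without wild-type replicate 2. Genes with a differential region numbered 1 at an FDR up to 0.0498 (Dazl) and 1 at an absolute log2 fold of 1 or more (Gtf2a1l). Covered length at Msh4 ranged from -57.8 to 205 bp (transgenic minus wild type) with a library left out, and was -21.3 bp without transgenic replicate 1; at Sycp3 it ranged from -17 to 382 bp. The causes were not tested. The authors' fit could not be repeated without a library.

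The labels give replicate numbers 1 to 3 in both groups and do not say whether these pair the animals. With the mean of its group taken off at each gene, same-numbered libraries correlated at -0.20, 0.06 and 0.48 over genes. Libraries of different number correlated at -0.50 to 0.44. These are correlations of what remains within a group, and not of the values themselves. These ranges are alike, so the correlations cannot decide whether the numbers pair the animals. With the replicate number as a block, the difference in end share was 16.3 points (exact sign-flip p = 0.25, the smallest 3 pairs allow). A mean difference is the same with and without the block by arithmetic, so recomputations with it could only be labelled the same. No difference between groups could be called significant with or without the block, so it cannot decide whether pairing matters. Wild-type replicate 3, with 30637 peaks, limits every count that asks for all 6 lists.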

Other observations

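Over all autosomal protein-coding genes, 41 had a CpG-rich promoter with a peak in all 6 lists. Of these, 9 (22.0%) were among the germ-cell genes above, which make up 0.213% of genes with a promoter, and 4 (Mael, Mov10l1, Rnf212 and Hsf2bp) were in the other germ-line lists. The remaining 28 were not tallied by function, and the 5 with the highest lowest score are given, chosen after their values were seen. Rpl10l, a copy of a ribosomal protein gene, had 1560, 1001 and 642 in transgenic and 274, 812 and 225 in wild-type lungs. Tktl2, a transketolase relative, had 728, 536 and 367 in transgenic and 264, 368 and 153 in wild-type lungs. Mcts2 had 765, 386 and 324 in transgenic and 167, 341 and 145 in wild-type lungs, and Fam178b had 766, 607 and 350 in transgenic and 177, 534 and 131 in wild-type lungs. Smarca5, a chromatin remodelling gene used in all cells, had 460, 340 and 217 in transgenic and 119, 306 and 122 in wild-type lungs. Some peaks lay over promoters of a pair of genes, such as Btbd18 with Ctnnd1 and Lrsam1 with Rpl12, and cannot be assigned to either.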
